A study of Mus musculus with 8 samples.

Results

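NADPH oxidases are enzymes that pass electrons from NADPH across a membrane to oxygen and so make superoxide or hydrogen peroxide. Their 9 subunit genes described here are Cybb, Cyba, Ncf1, Ncf4, Rac2, Nox1, Duox2, Duoxa2 and Nox4. They are 9 of the 29621 genes in the data, were listed by symbol, and the list was selected on the estimated reads of these same libraries, compared between the genotypes. Their differences between the genotypes are therefore given as a description: no p is printed for them and no conclusion rests on whether the fit over all genes called them.

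The phagocyte oxidase is built from the catalytic subunit Cybb and its membrane partner Cyba. In activated macrophages and neutrophils cytosolic subunits, among them Ncf1 and Ncf4, and the small GTPase Rac2 join them at the membrane and switch the enzyme on. Epithelia use other catalytic subunits. Nox1, best known from colon, works with Cyba and its own organizer and activator proteins, and Duox2 is a calcium-regulated enzyme of mucosal and thyroid epithelium that needs the maturation factor Duoxa2 to reach the cell surface. Nox4, described in fibroblasts, vessel wall and kidney, pairs with Cyba and makes hydrogen peroxide without cytosolic subunits.

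RNA from whole pancreas of C57BL/6 mice was sequenced at postnatal day 42, which is 6 weeks of age, after perfusion and ribosomal depletion. KPC-OG mice carried p48-Cre, an oncogenic allele behind an LSL (loxP-stop-loxP) cassette, Trp53 fl/fl and R26tm1(LSL-OG), and the series is titled as an antigenic KPC model. KPC mice carried the same alleles without the R26 allele, so Cre, the oncogenic allele and the floxed Trp53 gene are shared by both groups. Cre from the p48 (Ptf1a) locus acts in the pancreatic epithelial lineage, so macrophages and fibroblasts of these mice are outside its usual range. Each group had 4 libraries. Since the labels do not state that every library is from a mouse of its own, the spread behind each p-value is that between libraries and may be technical.

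Libraries held 13671606 to 18292115 estimated reads in KPC-OG and 7373286 to 11292570 in KPC, and reads of 18680 to 20062 genes in KPC-OG and 15072 to 16520 in KPC. Reads assigned to the mitochondrial synthetase gene Lars2 were 3.73% to 7.11% of the reads in KPC-OG and 20.8% to 30.0% in KPC. Whether they come from Lars2 transcripts was not tested, so these shares are not read as its expression. Levels between libraries are given as CPM, reads scaled to a common library size after TMM (trimmed mean of M-values) factors that set the typical gene equal. These factors were 1.14 to 2.28 in KPC-OG and 0.483 to 0.653 in KPC, so the scaling matters here. The 10 acinar markers, all detected, summed to 45324 to 151771 CPM in KPC-OG and 290503 to 539582 CPM in KPC. By the edgeR quasi-likelihood test with a threshold of 0.05 on the adjusted p, 2486 of 14267 genes tested were higher in KPC-OG and 2373 were lower, against 13078 and 99 when libraries were scaled by size only, where the median gene moved by 1.74 on the log2 scale. Because these are bulk samples, fewer cells of a type and less RNA per cell cannot be told apart.

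Of the 9 members 8 passed the filter on low counts, and Nox1 did not. The 6 genes Cybb, Cyba, Ncf1, Duox2, Duoxa2 and Nox4 were called higher in KPC-OG, where 17.4% of all genes tested were. In the same 6 genes every KPC-OG library lay above every KPC library, which held for 17.6% of all genes tested. As the members were selected on this comparison, nothing is read from either count.

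Promoters of 3 members are shown because these genes carry the contrasts below: Duoxa2 with the largest fold change, Cybb as the catalytic subunit of phagocytes and Cyba as the subunit that several oxidases share. Each is the 250 bases before the RefSeq start on the gene's own strand, from the GRCm38.p6 table of RefSeq promoters, which matched 7 of the 9 members. The Duoxa2 window is chr2:122298650-122298899 (plus strand), the Cybb window is chrX:9469325-9469574 (minus strand) and the Cyba window is chr8:122432941-122433190 (minus strand). Capitals mark matches to the AP-1-type motif TGANTCA.
Duoxa2: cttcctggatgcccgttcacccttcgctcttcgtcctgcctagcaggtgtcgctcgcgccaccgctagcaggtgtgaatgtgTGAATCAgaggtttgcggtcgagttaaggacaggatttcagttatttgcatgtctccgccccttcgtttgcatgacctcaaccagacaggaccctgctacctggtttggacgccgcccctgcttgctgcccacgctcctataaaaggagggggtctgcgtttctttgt
Cybb: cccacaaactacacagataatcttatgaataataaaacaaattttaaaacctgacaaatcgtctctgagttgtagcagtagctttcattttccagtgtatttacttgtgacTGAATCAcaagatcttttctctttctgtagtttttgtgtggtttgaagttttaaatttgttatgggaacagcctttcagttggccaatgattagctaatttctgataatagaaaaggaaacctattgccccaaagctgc
Cyba: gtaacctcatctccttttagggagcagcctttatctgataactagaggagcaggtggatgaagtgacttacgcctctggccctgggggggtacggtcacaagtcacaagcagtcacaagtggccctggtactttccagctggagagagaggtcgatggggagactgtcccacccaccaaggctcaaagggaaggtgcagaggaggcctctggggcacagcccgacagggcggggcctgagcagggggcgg

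The motifs searched on both strands were GAGGAA (PU.1-type), the kappaB consensus, TGANTCA (AP-1-type) and TTCNNNGAA (STAT-type), and no matches overlapped in these windows. They are held by 23.3%, 7.25%, 6.75% and 7.02% of all 32851 promoter windows of this length, in that order. Cybb held TGAATCA at 139 to 133 bases before its start, and Duoxa2 held the same letters at 168 to 162 bases before its start. Cyba and Duox2 held none of the 4, and the Duox2 window overlaps exons of Duox2 itself. Of the others, Nox1 held GAGGAA at 23 to 18 bases and the kappaB consensus, on the other strand, at 91 to 82 bases before its start, while Ncf1 and Nox4 each held the STAT-type motif, at 88 to 80 and at 222 to 214 bases. Each match is only a run of letters in a window and was not tied to binding.

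Cybb encodes gp91phox, the catalytic subunit of the phagocyte enzyme. Cybb (ENSMUSG00000015340, chrX:9435252-9487771, minus strand, GRCm38) had 21.4, 21.2, 24.6 and 31.1 CPM in KPC-OG libraries 1 to 4, against 13.4, 17.7, 7.96 and 16.0 CPM in KPC libraries 1 to 4. The lowest KPC-OG library stood above the highest KPC library, by a small gap. The means were 24.6 ± 4.61 CPM in KPC-OG and 13.8 ± 4.25 CPM in KPC (SD, n = 4 each), and the log2 fold change from edgeR was 0.82 ± 0.22 (SE), or 1.77-fold.

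Cyba encodes p22phox, the membrane partner that Cybb, Nox1 and Nox4 all need for stability. Cyba (ENSMUSG00000006519, chr8:122424776-122432930, minus strand) had 37.6, 45.9, 40.5 and 40.3 CPM in KPC-OG, against 8.59, 12.0, 8.76 and 12.8 CPM in KPC. Its KPC-OG libraries were tightly grouped and far above every KPC library. The means were 41.1 ± 3.51 CPM in KPC-OG and 10.6 ± 2.19 CPM in KPC, a log2 fold change of 1.95 ± 0.16 or 3.87-fold. The gene Gm20388 overlaps the whole of Cyba on the opposite strand, and as the labels do not state that counting used strand, their reads may be mixed.

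Ncf1 encodes p47phox, the organizer that carries the cytosolic complex to the membrane. Ncf1 (ENSMUSG00000015950, chr5:134220053-134229625, minus strand) had 14.7, 16.2, 25.3 and 18.5 CPM in KPC-OG, against 3.25, 11.5, 9.02 and 12.3 CPM in KPC. KPC library 1 stood lowest, with 17 reads, and the groups did not overlap. The log2 fold change was 1.04 ± 0.34, or 2.05-fold, with means of 18.7 ± 4.72 CPM in KPC-OG and 9.01 ± 4.09 CPM in KPC. Gtf2ird2 overlaps 4303 bases of Ncf1 on the opposite strand.

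Ncf4 encodes p40phox, which binds the membrane lipid that forms on phagosomes. Ncf4 (ENSMUSG00000071715, chr15:78244801-78262580, plus strand) had 3.07, 4.79, 4.45 and 3.63 CPM in KPC-OG, against 0.573, 1.50, 1.59 and 3.55 CPM in KPC. KPC library 4 reached the KPC-OG range and the other KPC libraries did not, so the groups overlapped. Only 3, 8, 6 and 21 reads stood behind the KPC values, against 101, 185, 68 and 122 reads in KPC-OG. The means were 3.99 ± 0.78 CPM in KPC-OG and 1.8 ± 1.25 CPM in KPC, a log2 fold change of 1.11 ± 0.42 that was not called. It was 1.72 and called without KPC library 4, the highest of its group, so a larger value was fixed in advance. Ncf4 was also called by DESeq2, but not when any other single library was left out.

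Rac2 encodes the small GTPase of blood cells that activates the phagocyte enzyme, and lymphocytes also express it. Rac2 (ENSMUSG00000033220, chr15:78559167-78572783, minus strand) had 10.8, 28.8, 22.5 and 20.9 CPM in KPC-OG, against 3.06, 22.9, 4.78 and 30.2 CPM in KPC. KPC libraries 2 and 4 reached into and past the KPC-OG range, while KPC libraries 1 and 3 lay below it. The means, 20.7 ± 7.46 CPM in KPC-OG and 15.2 ± 13.4 CPM in KPC, differed by less than the spread among KPC libraries, and the log2 fold change was 0.41 ± 0.64.

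**Figure D1:**
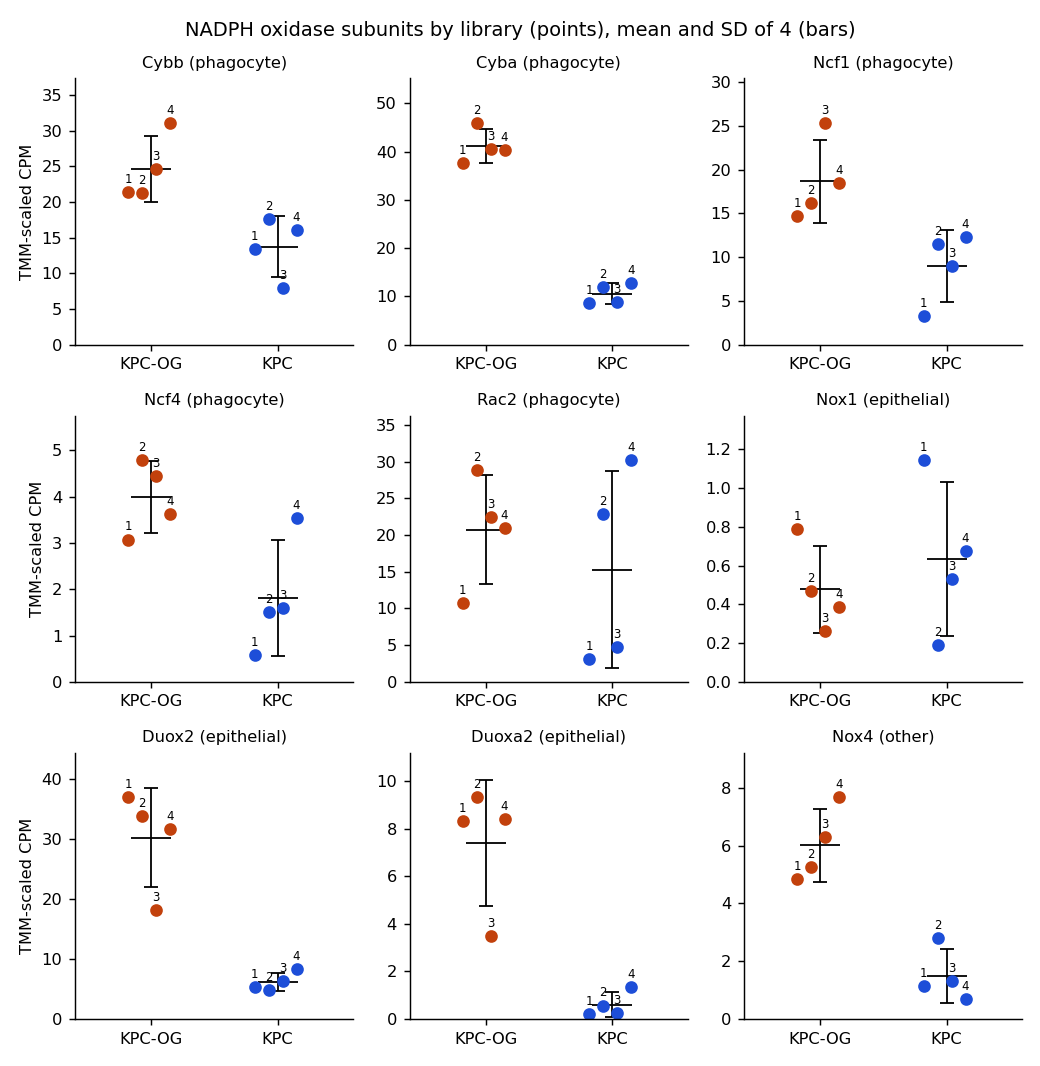
TMM-scaled CPM of the 9 members (vertical axes, each starting at 0) in the KPC-OG and KPC libraries (horizontal axis), with points numbered by replicate and bars for the mean and SD of 4. Cyba and Duox2 separate the groups widely, Rac2 splits the KPC libraries into a low and a high pair, and Nox1 lies near or below 1 CPM.

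Markers of other cells moved with these genes. All 16 macrophage markers were tested and 14 were called higher, with a summed level of 831 to 1147 CPM in KPC-OG and 251 to 485 CPM in KPC. Lyz2 weighed most in that sum, at a mean of 504 CPM of 995 CPM in KPC-OG and 166 CPM of 372 CPM in KPC. The log2 fold changes of single macrophage markers ran from 0.67 for Mrc1 to 2.33 for Cd14, around 1.95 for Cyba. Neutrophil markers were scarce: 6 of 12 passed the filter, Ly6g had 1 read in each group, and the sum was 24.6 to 37.9 CPM in KPC-OG and 6.49 to 26.7 CPM in KPC. Of them 1 was called higher, against 2 by DESeq2, 3 without KPC library 2, 6 with library sizes only, and 0 by limma-voom, with the transcript length offset, or without KPC library 1, KPC-OG library 1 or KPC-OG library 3. Set against 100 CPM of summed macrophage markers in the same library, Cybb stood at 2.15 to 2.71 CPM in KPC-OG and 2.39 to 5.33 CPM in KPC, with overlap. On the same footing Cyba stood at 3.52 to 5.53 CPM in KPC-OG and 2.63 to 3.43 CPM in KPC, without overlap. Per 100 CPM of summed duct markers, however, Cyba stood at 2.89 to 5.60 CPM in KPC-OG and 2.04 to 3.61 CPM in KPC, with overlap. Per 100 CPM of macrophage markers Ncf1 stood at 1.61 to 2.22 CPM in KPC-OG and 1.29 to 2.75 CPM in KPC, and Ncf4 at 0.317 to 0.577 CPM in KPC-OG and 0.228 to 0.730 CPM in KPC. Both pairs of ranges overlapped. The part of macrophage content in the Rac2 values was not tested.

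T and B cell markers differed between libraries of one group rather than between groups. None of the 9 T cell or 6 B cell markers tested was called in either direction by edgeR, DESeq2 or limma-voom, and by edgeR 0 had an unadjusted p under 0.05. The 10 T cell markers summed to 5.66, 50.2, 29.6 and 14.6 CPM in KPC-OG libraries 1 to 4, against 2.67, 45.1, 2.65 and 42.7 CPM in KPC libraries 1 to 4. B cell markers summed to 1.80, 62.3, 37.8 and 15.4 CPM in KPC-OG, against 1.91, 44.3, 1.06 and 56.1 CPM in KPC. The 3 libraries with the highest summed CPM of T and B cell markers, KPC-OG 2 and KPC 2 and 4, were also the 3 with the highest Rac2 CPM. Within KPC, libraries 2 and 4 were also the highest for Cybb, Cyba and Ncf1, while Ncf4 was highest in libraries 4 and 3. Summed macrophage markers were 417 and 485 CPM in KPC libraries 2 and 4, against 251 and 334 CPM in KPC libraries 1 and 3. With KPC libraries 2 and 4 both left out, a choice made after seeing the data, the Rac2 log2 fold change was 2.43. These are the KPC libraries with the highest Rac2 CPM, and KPC-OG 2 was kept. A larger value was therefore fixed in advance, and nothing is read from it. The part of lymphocytes in the Rac2 values was not tested.

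**Figure D2:**
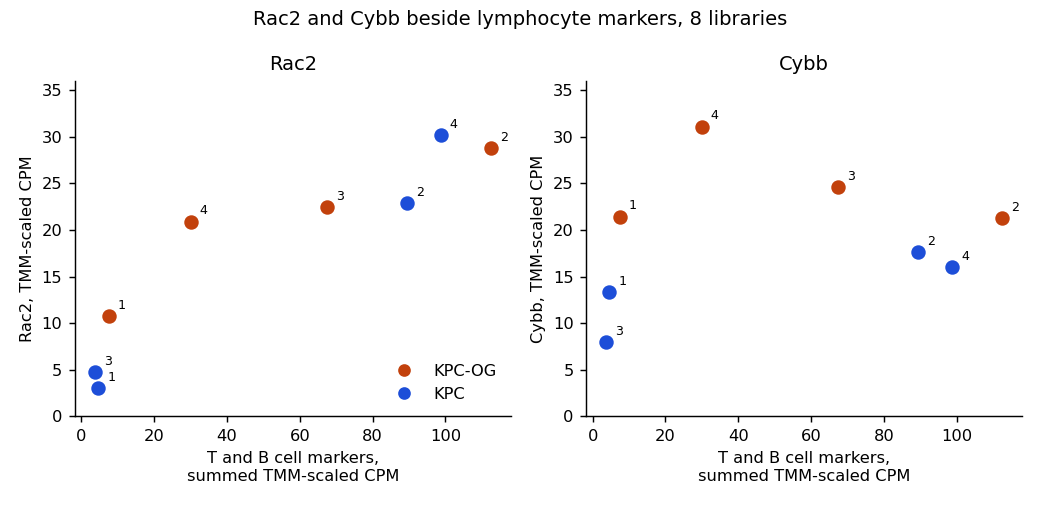
Rac2 (left) and Cybb (right) in TMM-scaled CPM against the summed TMM-scaled CPM of T and B cell markers in the 8 libraries, numbered by replicate. Rac2 is highest in KPC-OG 2 and in KPC 2 and 4, the libraries with the highest summed marker CPM. The highest Cybb value is in KPC-OG 4, and within KPC Cybb is also highest in libraries 2 and 4.

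Nox1 encodes the catalytic subunit first known from colon epithelium. Nox1 (ENSMUSG00000031257, chrX:134086421-134221956, minus strand) had 0.791, 0.466, 0.262 and 0.387 CPM in KPC-OG, against 1.15, 0.188, 0.531 and 0.675 CPM in KPC. These rest on 26, 18, 4 and 13 estimated reads in KPC-OG and 6, 1, 2 and 4 in KPC, and the groups overlapped. The means were 0.477 ± 0.226 CPM in KPC-OG and 0.635 ± 0.397 CPM in KPC. In TPM (length-scaled transcript abundance) the order of the means turned round, at 0.538 in KPC-OG and 0.188 in KPC, so no direction is given. Nox1 also overlaps Cstf2 and Arl13a on the opposite strand and Xkrx on its own strand, so its few reads are uncertain.

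Duox2 encodes the dual oxidase of mucosal epithelium. Duox2 (ENSMUSG00000068452, chr2:122279247-122298449, minus strand) had 36.9, 33.8, 18.2 and 31.6 CPM in KPC-OG, against 5.35, 4.88, 6.37 and 8.27 CPM in KPC. KPC-OG library 3 was the lowest of its group and still above every KPC library. The means were 30.1 ± 8.24 CPM in KPC-OG and 6.22 ± 1.5 CPM in KPC, a log2 fold change of 2.27 ± 0.25 or 4.84-fold.

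Duoxa2 encodes the factor that Duox2 needs to leave the endoplasmic reticulum. Duoxa2 (ENSMUSG00000027225, chr2:122298900-122302885, plus strand) had 8.34, 9.33, 3.47 and 8.40 CPM in KPC-OG, against 0.191, 0.563, 0.265 and 1.35 CPM in KPC. KPC-OG library 3 was again lowest, and the groups did not overlap. The KPC values rest on 1, 3, 1 and 8 reads, against 274, 360, 53 and 282 reads in KPC-OG. The means were 7.38 ± 2.65 CPM in KPC-OG and 0.593 ± 0.53 CPM in KPC, a log2 fold change of 3.54 ± 0.51 or 11.7-fold. Without KPC library 4, the highest of its group, it was 4.38, a larger value that was fixed in advance. The genes lie head to head, with 450 bases between the Duox2 and Duoxa2 ends that face each other, and 695 bases of Duoxa2 overlap Duoxa1 on the opposite strand.

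Epithelial markers were higher beside these genes. Of 10 duct markers, all tested, 8 were called higher, and they summed to 723 to 1376 CPM in KPC-OG and 333 to 489 CPM in KPC. All 4 intestinal epithelial markers tested, of 6, were called higher. KPC-OG library 3, lowest for Duox2 and Duoxa2, was also lowest of its group for duct markers and highest for acinar markers. Per 100 CPM of summed duct markers, Duox2 stood at 2.30 to 2.91 CPM in KPC-OG and 1.27 to 1.72 CPM in KPC, and Duoxa2 at 0.480 to 0.802 CPM in KPC-OG and 0.0454 to 0.276 CPM in KPC. Neither pair of ranges overlapped. Krt8 and Krt18 weighed most in the duct sum, at means of 140 and 114 CPM in KPC, where the sum averaged 403 CPM. In KPC-OG they averaged 368 and 205 CPM, where the sum averaged 1140 CPM. The log2 fold changes of single duct markers ran from 0.15 for Sox9 to 2.84 for Tspan8, around 2.27 for Duox2 and below 3.54 for Duoxa2. The part of duct content in the Duox2 and Duoxa2 values was not tested.

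Nox4 encodes a constitutively active, peroxide-producing oxidase. Nox4 (ENSMUSG00000030562, chr7:87246096-87398710, plus strand) had 4.84, 5.26, 6.29 and 7.68 CPM in KPC-OG, against 1.15, 2.82, 1.33 and 0.675 CPM in KPC. The groups did not overlap, though only 6, 15, 5 and 4 reads stood behind the KPC values, against 159, 203, 96 and 258 reads in KPC-OG. The means were 6.02 ± 1.26 CPM in KPC-OG and 1.49 ± 0.926 CPM in KPC, a log2 fold change of 2.01 ± 0.37 or 4.03-fold. With an offset for the lengths of the transcripts the reads were assigned to, the log2 fold change was 1.23.

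The reads of Nox4 were spread over transcripts that differ in length. The protein-coding transcript Nox4-201, of 3753 bases, was assigned 26.7, 69.4, 0 and 171 reads in KPC-OG libraries 1 to 4, and 0 in all 4 KPC libraries. The short processed transcript Nox4-204, of 1159 bases, took 31.1% of the pooled Nox4 reads in KPC-OG and 82.4% in KPC. Of 8 fibroblast markers, 7 were called higher, with sums of 1642 to 4642 CPM in KPC-OG and 983 to 1305 CPM in KPC. Per 100 CPM of those markers Nox4 stood at 0.104 to 0.383 CPM in KPC-OG and 0.0528 to 0.216 CPM in KPC, with overlap. Of 6 endothelial markers, all tested, 1 was called higher by edgeR and 0 by limma-voom. Endothelial markers summed to 56.8 to 89.8 CPM in KPC-OG and 61.3 to 89.2 CPM in KPC, with overlap. The part of either cell type in the Nox4 values was not tested.

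**Figure D3:**
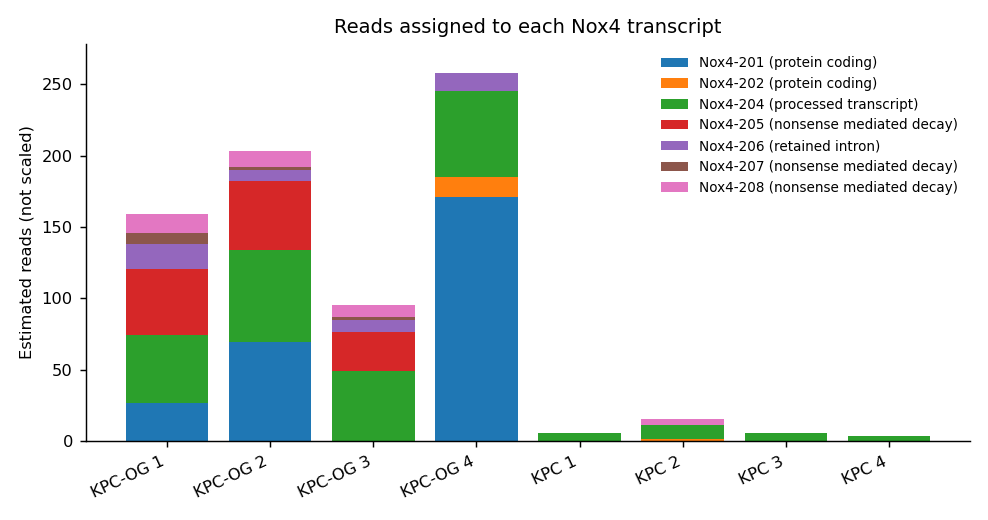
Estimated reads (not scaled for depth) assigned to each Nox4 transcript, stacked by library, KPC-OG left of KPC. The protein-coding Nox4-201 has reads in 3 of 4 KPC-OG libraries and in none of the KPC libraries, where Nox4-204 holds most of the 4 to 15 reads.

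Levels of different genes were compared per length, in TPM, within each group. In KPC-OG the order of the means was Cyba at 138, Ncf1 at 17.9, Cybb at 17.8, Rac2 at 17.1, Duox2 at 14.3, Duoxa2 at 12.4, Ncf4 at 9.75, Nox4 at 7.02 and Nox1 at 0.538 TPM. Cyba stood above all others and Nox1 below all others without overlap, while each neighbouring pair from Ncf1 to Nox4 overlapped. In KPC the order was Cyba at 11.6, Rac2 at 4.21, Ncf1 at 2.85, Cybb at 2.72, Ncf4 at 1.62, Nox4 at 0.984, Duox2 at 0.966, Duoxa2 at 0.332 and Nox1 at 0.188 TPM. There Cyba and Rac2 nearly touched, with the lowest Cyba library at 7.808 TPM and the highest Rac2 library at 7.802 TPM. Duox2 stood apart from Duoxa2, and the other neighbouring pairs overlapped. By its mean, epithelial Duox2 ranked above the phagocyte subunit Ncf4 in KPC-OG and below all 5 phagocyte subunits in KPC. The Duox2 and Ncf4 ranges overlapped in each group, and in KPC-OG library 3 Ncf4 was the higher, at 8.32 against 4.87 TPM.

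Ratios within a library do not depend on the scaling between libraries. The log2 ratio of the summed TPM of the 5 phagocyte members to that of Nox1, Duox2 and Duoxa2 was 2.48, 2.86, 3.93 and 2.82 in KPC-OG, against 3.31, 4.62, 3.80 and 3.81 in KPC. Of the KPC-OG libraries, 1, 2 and 4 lay below every KPC library, and library 3 above all but KPC library 2. The means were 3.02 ± 0.626 in KPC-OG and 3.89 ± 0.544 in KPC, a difference of -0.86. It was -1.44 with Cyba, the shared subunit, left out of the phagocyte sum, and -0.51 with Nox4 added to the epithelial sum, and the groups overlapped in both. So phagocyte transcripts outweighed epithelial ones in every library, and by less on average in KPC-OG.

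The Duoxa2 to Duox2 ratio, in TPM, was 0.791, 0.943, 0.691 and 0.907 in KPC-OG, against 0.0862, 0.465, 0.193 and 0.554 in KPC. The groups did not overlap, so the maturation factor stood closer to its enzyme in KPC-OG, while the KPC ratios rest on 1 to 8 Duoxa2 reads. The Cyba to Cybb ratio was 9.43, 8.34, 9.54 and 5.96 in KPC-OG, against 3.32, 3.38, 7.01 and 5.11 in KPC, and the groups overlapped through KPC-OG library 4 and KPC library 3. The Ncf1 to Cybb ratio was 1.17 ± 0.539 in KPC-OG and 1.15 ± 0.671 in KPC.

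**Figure D4:**
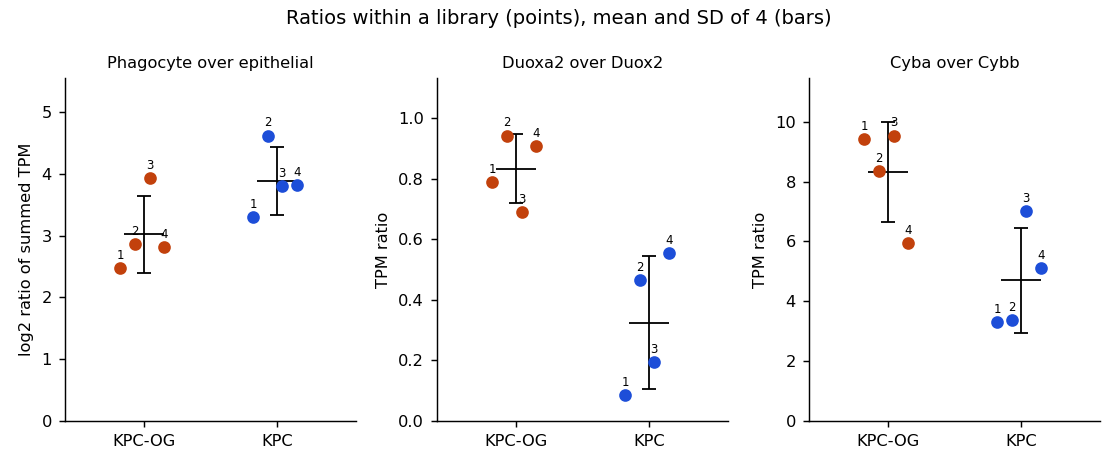
Ratios within each library (vertical axes), KPC-OG left of KPC, numbered by replicate, with the mean and SD of 4: the log2 ratio of summed phagocyte to epithelial TPM, and the TPM ratios of Duoxa2 to Duox2 and of Cyba to Cybb. The Duoxa2 to Duox2 ratios do not overlap, at 0.691 to 0.943 in KPC-OG and 0.0862 to 0.554 in KPC.

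The other genes of the oxidase complexes were tested in the fit over all genes, on a list drawn up with earlier results known. Of 8 genes, 6 passed the filter, 2 rose and none fell (0 also at an unadjusted p under 0.05 and by DESeq2 or limma-voom), with a median log2 fold change of 0.78 beside 0.09 for all genes tested, of which 17.4% were higher and 16.6% lower. Among those that rose, Duoxa1, the maturation factor of Duox1, whose gene overlaps Duoxa2 on the opposite strand, averaged 2.59 ± 0.931 CPM in KPC-OG and 0.377 ± 0.531 CPM in KPC and rose by 2.71 ± 0.74 on the log2 scale (edgeR adjusted p = 0.0176). That call was lost with the transcript length offset (adjusted p = 0.101) and without KPC library 1 (adjusted p = 0.052). Without KPC library 2, the highest of its group, the log2 fold change was 4.22, a larger value that was fixed in advance. The KPC values of Duoxa1 rest on 2, 6, 0 and 0 reads.

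The remaining 4 tested genes did not pass. Rac1, the widely expressed GTPase that can stand in for Rac2, averaged 63.2 ± 7.04 CPM in KPC-OG and 59.8 ± 7.94 CPM in KPC (edgeR adjusted p = 0.692). Cybc1, a chaperone that the Cybb protein needs, averaged 10.3 ± 1.13 CPM in KPC-OG and 7.63 ± 2.26 CPM in KPC (edgeR adjusted p = 0.138). Noxo1, the organizer of Nox1, averaged 2.09 ± 0.6 CPM in KPC-OG and 0.662 ± 0.587 CPM in KPC (edgeR adjusted p = 0.0523), and passed without KPC library 3 (adjusted p = 0.0415), without KPC-OG library 3 (0.0362), with the length offset (0.0463) and by DESeq2 (0.0158). The Nox1 activator Noxa1 averaged 22.7 ± 6.39 CPM in KPC-OG and 27.7 ± 2.92 CPM in KPC (edgeR adjusted p = 0.272), passed as lower without KPC-OG library 1 (0.0451), and was higher in KPC-OG with library sizes only and in TPM. Duox1 was not tested: it had 0.578, 0.544, 0.196 and 0.566 CPM in KPC-OG and 0 reads in all KPC libraries, at least 3.18-fold higher against a floor of 3 reads over the KPC group. Nox3, the oxidase of the inner ear, had 0 reads in all 8 libraries.

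**Figure D5:**
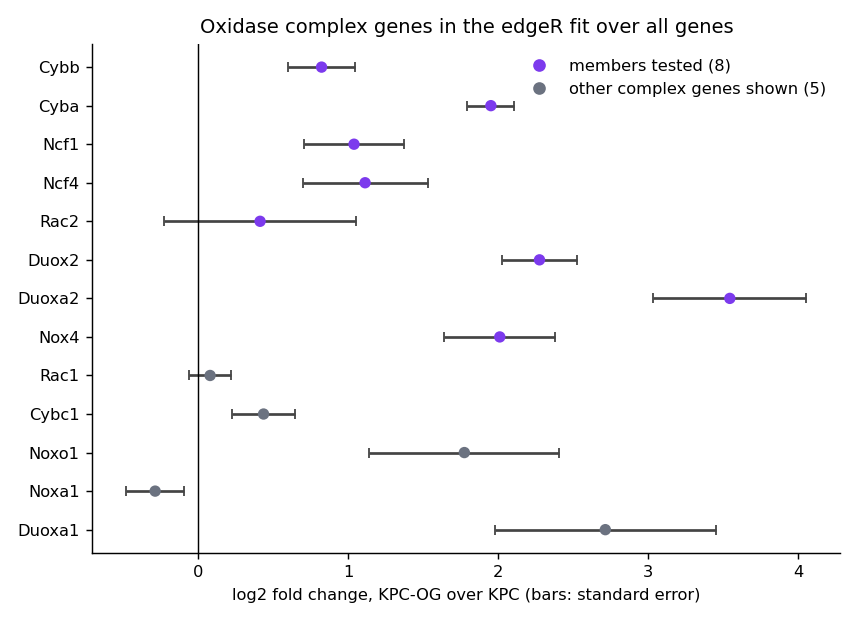
Log2 fold change (KPC-OG over KPC, horizontal axis, bars for the standard error) from the edgeR fit over all genes, for the 8 members tested and 5 other complex genes. Duoxa2 lies highest at 3.54, the phagocyte subunits other than Cyba lie between 0.41 and 1.11, and Rac1 lies at 0.08.

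Genes that act upstream of the oxidases were also listed with earlier results known. Of 15, all tested, 4 rose, 2 fell and 9 did not pass, beside 17.4% higher and 16.6% lower among all genes tested, so neither count is a result about the list. Their median log2 fold change was 0.43, beside 0.09 for all genes tested. Pak1, a Rac-driven kinase, averaged 13.7 ± 3.8 CPM in KPC-OG and 3.8 ± 0.883 CPM in KPC and rose by 1.84 ± 0.26 on the log2 scale (edgeR adjusted p = 0.00102). Prkcd, a protein kinase C that phosphorylates p47phox, averaged 28 ± 2.54 CPM in KPC-OG and 15.8 ± 4.67 CPM in KPC and rose by 0.82 ± 0.19 (edgeR adjusted p = 0.00955). Both calls held in every alternative that gave a p.

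The other upstream calls were less firm. Pik3cg, a lipid kinase of leukocytes, rose by 1.01 ± 0.33 (edgeR adjusted p = 0.0368) and Prex1, a Rac exchange factor, by 0.67 ± 0.23 (edgeR adjusted p = 0.0439). Each was lost by limma-voom, with the length offset and without any of several single libraries: KPC 1, 3 or 4 and KPC-OG 2 or 4 for both, and KPC-OG 3 for Prex1. The adjusted p reached 0.185 for Pik3cg and 0.108 for Prex1. Sh3pxd2a, the podosome organizer Tks5, averaged 47.8 ± 9.92 CPM in KPC-OG and 75.7 ± 6.78 CPM in KPC and fell by 0.67 on the log2 scale (adjusted p = 0.00961 from edgeR), and missed the threshold with KPC libraries 2 and 4 both left out (0.0551). Poldip2, a partner of Nox4, averaged 19.3 ± 1.31 CPM in KPC-OG and 26.7 ± 3.01 CPM in KPC and fell by 0.47 on the log2 scale (adjusted p = 0.0135 from edgeR), which missed the threshold with the length offset (0.145). Both falls turn positive, at 1.03 for Sh3pxd2a and 1.27 for Poldip2, with library sizes only, and also turn positive in TPM. Relative to the median gene of that scaling they were -0.80 for Sh3pxd2a and -0.55 for Poldip2.

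Antioxidant genes, whose products remove the superoxide and peroxide that oxidases make, were listed in the same way. Of 30, all tested, 15 rose, 3 fell and 12 did not pass, beside 17.4% higher and 16.6% lower among all genes tested. Their median log2 fold change was 0.44, beside 0.09 for all genes tested. The peroxiredoxins, which reduce peroxide, moved in both directions. Prdx5 averaged 44.5 ± 3.82 CPM in KPC-OG and 18.5 ± 2.55 CPM in KPC and rose by 1.26 ± 0.13 (edgeR adjusted p = 4.65e-04). Prdx1 averaged 153 ± 29 CPM in KPC-OG and 65.6 ± 6.66 CPM in KPC and rose by 1.22 ± 0.17 (edgeR adjusted p = 9.53e-04). Prdx2 averaged 49.3 ± 5.69 CPM in KPC-OG and 25.8 ± 3.18 CPM in KPC and rose by 0.93 ± 0.14 (edgeR adjusted p = 0.00119). The secreted peroxidase gene Gpx3 averaged 19.9 ± 4.65 CPM in KPC-OG and 8.55 ± 1.92 CPM in KPC and rose by 1.21 ± 0.21 (edgeR adjusted p = 0.00243).

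The 3 antioxidant genes that fell were Prdx4, Sod2 and Slc7a11. Prdx4, the peroxiredoxin of the endoplasmic reticulum, averaged 44.7 ± 15.8 CPM in KPC-OG and 109 ± 15.6 CPM in KPC and fell by 1.28 (edgeR adjusted p = 0.00337). Sod2, the mitochondrial superoxide dismutase, averaged 27.3 ± 2.92 CPM in KPC-OG and 42.6 ± 7.97 CPM in KPC and fell by 0.64 (edgeR adjusted p = 0.00921). Slc7a11, the cystine carrier that feeds glutathione synthesis, averaged 17.3 ± 0.541 CPM in KPC-OG and 29.1 ± 9.15 CPM in KPC and fell by 0.76 (edgeR adjusted p = 0.0114). With library sizes only these log2 differences were 0.37 for Prdx4, 1.09 for Sod2 and 1.02 for Slc7a11, positive as they were in TPM, and relative to the median gene of that scaling -1.46, -0.74 and -0.81 in the same order. Of the 10 acinar markers, 9 fell beside them, and their part in these differences was not tested. The number that fell was 4 with library sizes only, 5 without KPC library 1, 5 without KPC-OG library 2 and 5 with KPC libraries 2 and 4 both left out.

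Haem peroxidases use the peroxide that oxidases supply. Of 5 only Pxdn, the peroxidase that crosslinks basement membrane collagen, passed the filter. It averaged 27.8 ± 8.2 CPM in KPC-OG and 15.7 ± 3.75 CPM in KPC and rose by 0.81 ± 0.23 (edgeR adjusted p = 0.0223), although the groups overlapped. That call was lost without KPC library 1, 3 or 4 or KPC-OG library 1 or 4, with an adjusted p of up to 0.0711. Mpo, the neutrophil myeloperoxidase, had 0.122, 0.337, 0 and 0.119 CPM in KPC-OG and 0 reads in KPC. Epx, the eosinophil enzyme, had 0, 1, 2 and 3 reads in KPC-OG and 0 in KPC, while Lpo had 0 reads in all 8 libraries.

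Genes whose pattern lay nearest to Cybb and to Duox2 were found by the root mean square difference of log2 CPM, each gene centred on its own mean, over the 8 libraries and 9243 candidates. For Cybb they were Gm2a (0.120), Wdsub1 (0.120), Mpdz (0.136), Cmklr1 (0.164) and Acap3 (0.165), where the median candidate differed by 0.652. For Duox2 they were Golm1 (0.134), S100a11 (0.166), Ugt1a7c (0.185), Cftr (0.186) and Krt7 (0.187), where the median candidate differed by 1.22. Cftr, the chloride channel of duct cells, had 35.3, 30.0, 21.3 and 41.6 CPM in KPC-OG, against 5.16, 5.45, 7.96 and 9.12 CPM in KPC. Like Duox2, it was lowest of the KPC-OG libraries in library 3. These lists describe likeness over libraries that share a group difference and depth.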

How the data were processed

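RNA was measured in 8 whole-pancreas libraries. Per the file headers, the authors made the deposited estimated counts (reads) and TPM per transcript from Sailfish 0.6.3 (k-mer length 20, 1000 iterations, bias corrected) on Ensembl release 76 transcripts. Other tools, per the submitters' processing notes, were STAR 2.0.4b, bcl2fastq, limma and edgeR, with no role given. Of 86127 transcripts 83827 matched the annotation by ID and were summed to 29621 genes. The 2300 unmatched held 1.45% to 4.23% of reads. The estimated counts were rounded and tested with edgeR 4.0.16 in R 4.3.3 (filterByExpr with a minimum count of 10, TMM, robust quasi-likelihood, Benjamini-Hochberg adjustment, threshold 0.05), tested on simulated data. No 2 libraries of a group agreed within sampling noise (lowest chi-square per degree of freedom 14.7). TPM served to compare genes within libraries. The members and lists were chosen with earlier results of these data known. Named genes were all members, the tested complex genes, up to 4 per direction of each other list by adjusted p, and the 5 genes nearest to Cybb and Duox2. Some genes of the lists are not reported here. Alternatives were DESeq2 1.42.0, limma-voom (3.58.1), library sizes only (also re-centred), no filter, log2(TPM + 1) and log2(TPM + 0.1) with limma, a transcript length offset, the replicate number as a block, and leaving out each library.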

Additional observations from a re-analysis of the deposited data

Results flagged for a closer look

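In 78 groups of 4 libraries examined, 4 had 1 library far from the other 3, at a gap that chance gives in about 1 in 20 groups. Duoxa2 in KPC-OG library 3 was 3.47 CPM, where the other KPC-OG libraries were 8.34 to 9.33 CPM. Duox1 in KPC-OG library 3 was 0.1964 CPM, where the others were 0.544 to 0.578 CPM. Rac1 in KPC library 4 was 71.59 CPM, where the others were 54.8 to 57.1 CPM. Ncf1 per 100 CPM of summed macrophage markers was 1.295 CPM in KPC library 1, where the others were 2.54 to 2.75 CPM.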

How the results depend on the processing

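The log2 fold changes of the 8 tested members were positive in all 18 alternatives. As the members were selected on this comparison, nothing is read from that. The median gene itself stood at 1.82 with library sizes only, 1.31 with log2(TPM + 1) and 1.69 with log2(TPM + 0.1). Rac2 was as low as 0.06, without KPC library 1. Nox1, tested only in some alternatives, was 0.06 without KPC library 1. It was -0.71, -0.46 and -0.36 without KPC library 2, 3 and 4, in that order. Scaling decides the counts most. With library sizes only, log2(TPM + 1) and log2(TPM + 0.1), genes higher in KPC-OG numbered 13078, 12856 and 12817 and genes lower 99, 121 and 120, in that order. In all 3 the other complex genes higher were 6, the upstream genes 15 higher and 0 lower, and the antioxidant genes 29, 28 and 28 higher and 0 lower. Upstream genes higher were 2 by limma-voom and 9 with KPC libraries 2 and 4 both left out, and those lower were 1 with the length offset and 1 with both left out. The cause was not tested.

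Leaving out 1 library gave 1689 to 2880 genes higher and 1705 to 2548 lower, 4 to 7 members higher, 2 to 4 other complex genes higher and 0 to 1 lower, 2 to 5 upstream genes higher and 2 to 3 lower, 11 to 17 antioxidant genes higher and 3 to 4 lower, and 0 to 1 haem peroxidase genes higher with 0 lower. The phagocyte over epithelial difference was -1.16 to -0.62. Cybb lost its call without KPC library 1 or KPC-OG library 4, and Ncf1 without KPC library 3 or KPC-OG library 2, 3 or 4.

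Libraries with the same replicate number deviated together with correlations of 0.274, 0.275, 0.0385 and 0.0361, all positive. In addition, 5 of 8 libraries correlated best with their own number. These values do not settle whether the numbers pair the libraries, and the main fit did not pair them. With the replicate block, 2477 genes were higher and 2418 lower, and 6 members were higher. Few KPC reads limit Duoxa2, Nox4, Ncf4 and Nox1, and also Duoxa1 and Noxo1 among the other complex genes.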
